A study of Mus musculus with 6 samples.

Results

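The genes described here encode the proteins that set the ion gradients of a neuron: the sodium pump (Atp1a and Atp1b subunits, with the Fxyd modulators), the calcium pumps (Atp2a, Atp2b and Atp2c), the calcium exchangers (Slc8 and Slc24a), the cation-chloride cotransporters (Slc12a), the bicarbonate and anion exchangers (Slc4a and Slc26a), the proton exchangers (Slc9a) and the Clcn proteins. They were matched by gene symbol, and 81 of the 55341 genes in the table matched, in 13 families. The material was 6 single olfactory sensory neurons, the cells of the olfactory epithelium that detect odours, from wild type C57BL/6 mice aged 6 weeks, with no agent named. Each neuron was frozen after a physiological recording and made into its own CEL-Seq2 library, and is called cell 1 to cell 6 here. The labels put the 6 cells in 1 group and name no animal, so nothing checks a difference between cells by replication, and the errors given below cover counting alone. Some of the cells may come from the same animal.

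In an olfactory neuron an odour opens cation channels of the cilia and then chloride channels, through which chloride leaves the cell. The chloride current depolarises the cell because the cotransporter Slc12a2 keeps internal chloride high, and calcium is then cleared from the cilia by sodium-calcium exchangers and calcium pumps. The sodium pump supplies the gradients on which this cotransporter and these exchangers run. As background, the potassium-dependent exchanger Slc24a4 is known in mouse olfactory neurons for ending the response and for adaptation.

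The libraries held 8613, 34478, 122546, 60902, 22525 and 11725 counts in cells 1 to 6, so that 1 count was worth 116 CPM (the usual scaled count, over all genes of a cell) in cell 1 and 8.16 CPM in cell 3. Listed markers of mature olfactory neurons summed to between 18916 and 32045 CPM, with 9 of 9 genes found, while markers of immature neurons, 4 of 5 found and Gng8 at 0, summed to between 581 and 2791 CPM. RNA known from other cells of the nose was also counted. Gland markers summed to 6966, 32136, 955, 394, 5461 and 85.3 CPM in cells 1 to 6, with Bpifb4 and Lyz2 at 0. Red blood cell markers summed to 1742, 4264, 4080.1, 12610.4, 2575 and 171 CPM, with Alas2 at 0, and sustentacular cell markers ranged from 85.3 to 1450.2 CPM, with Cyp1a2 at 0. Of 5 ionocyte and microvillous cell markers, 4 (Foxi1, Ascl3, Cftr and Trpm5) were at 0 in all cells, and Coch had no count in cell 4 and 1962 CPM in cell 6. Of 5 immune markers, 3 had no count in any cell.

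Members were found about as often as protein-coding genes in general. A count in at least 1 cell was found for 41 of the 81 members, or 50.6%, against 49.8% of the 21923 protein-coding genes and 29.8% of all genes. Counts in all 6 cells were found for 6 members (7.41%, against 2.89% of protein-coding genes and 1.5% of all genes), among them Atp1b1, Atp2a2, Slc24a2, Slc12a2 and Clcn4. At least 10 counts in a cell were reached by 13 members, against 12.4% of protein-coding genes and 6.08% of all genes. These 13 held 1236 of the 1373 member counts (90.02%). Among them, Atp1b1 had 443 counts, Slc24a2 161 and Atp2a2 107.

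**Figure D1:**
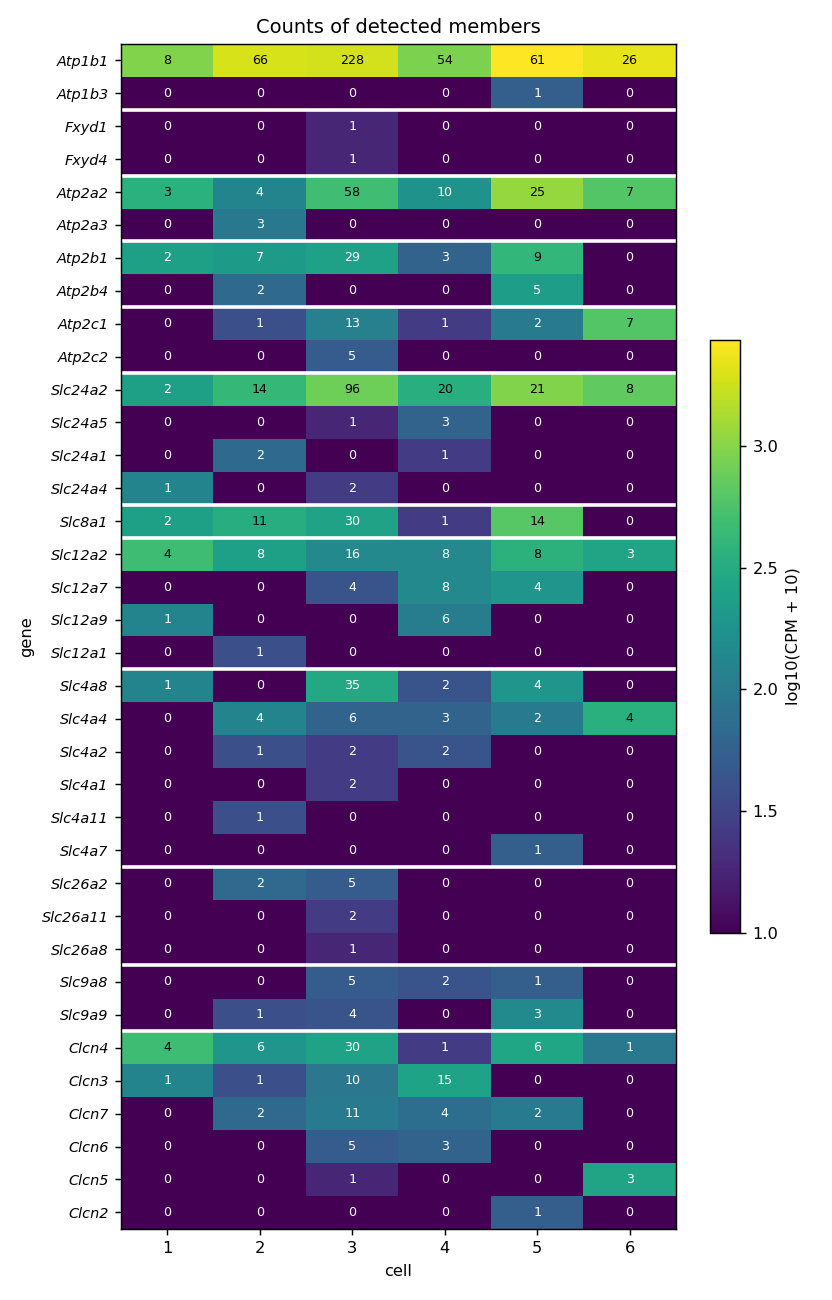
Each row is a reported member with a count in at least 1 cell and each column a cell. The printed number is the count, the colour is log10(CPM + 10), and white lines separate the families. Atp1b1, Atp2a2, Slc24a2, Slc12a2 and Clcn4 have counts in all 6 cells, and cell 3, the deepest library, has 228 counts of Atp1b1 and 96 of Slc24a2.

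Members found per cell numbered 13, 22, 31, 24, 20 and 10 in cells 1 to 6, in the order of the library totals except that cell 6 had fewer than the shallower cell 1. Those numbers were 16.05%, 27.2%, 38.3%, 29.6%, 24.7% and 12.3% of the members, beside 11.4%, 27.0%, 36.1%, 29.7%, 23.9% and 8.36% of protein-coding genes in the same cells. With every cell thinned at random to 8613 counts, the mean number of members found was 13, 11.45, 14.15, 10.85, 14.8 and 9.70, and the order no longer followed the library total. Cell 5 then had the highest mean and cell 6 the lowest, but draws overlapped. Cell 5 (13 to 16 members) overlapped cell 3 (11 to 18), and cell 6 (9 to 10) overlapped cell 4 (9 to 14) and cell 2 (9 to 15). The draws show the spread of thinning only.

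**Figure D2:**
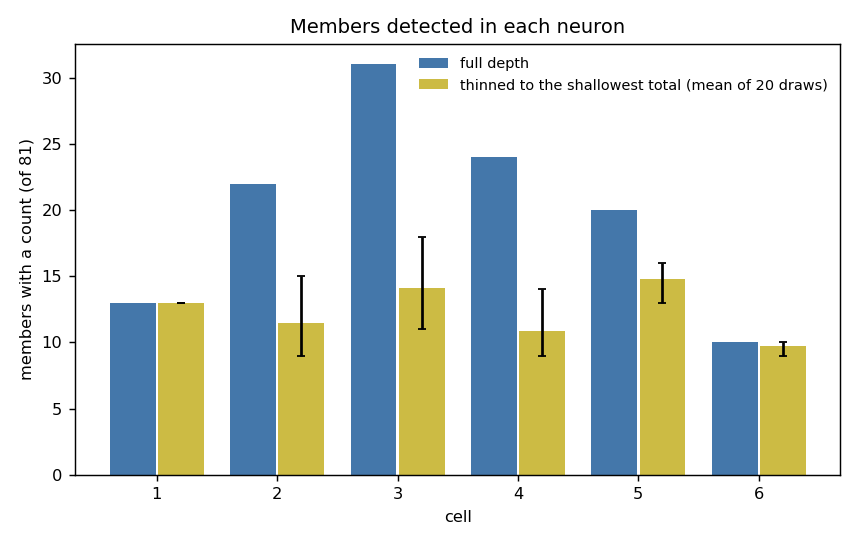
Bars give the number of the 81 members with at least 1 count in each cell, at full depth (blue) and after thinning to 8613 counts (yellow, mean of 20 draws, with the lowest and highest draw as black lines). At full depth cell 3 stands at 31 and cell 6 at 10, and after thinning all cells lie between 9.70 and 14.8.

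All members together took 0.406%, 0.444%, 0.616%, 0.289%, 0.817% and 0.597% of the counts of cells 1 to 6. As levels these were, in the same order, 4064 (95% Poisson interval 2830.5 to 5652), 4438 (3762 to 5199), 6161 (5729 to 6617), 2889.9 (2479 to 3349.8), 8169 (7031 to 9438) and 5970.2 CPM (4654 to 7543). Cell 5 was highest and cell 4 lowest, with a ratio of 2.83 (95% interval 2.29 to 3.50). Counting error does not separate cell 1 from cell 4 (ratio 1.41, interval 0.949 to 2.03). The intervals of cells 2, 3, 5 and 6 lay wholly above that of cell 4. Gland RNA was most abundant in cell 2 and globin RNA in cell 4, and their part in the member levels was not tested. Cell 6 had 1 gland count, 2 red blood cell counts, 1 sustentacular count and 23 counts of Coch, beside 26 counts of Atp1b1, 8 of Slc24a2 and 7 of Atp2a2.

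**Figure D3:**
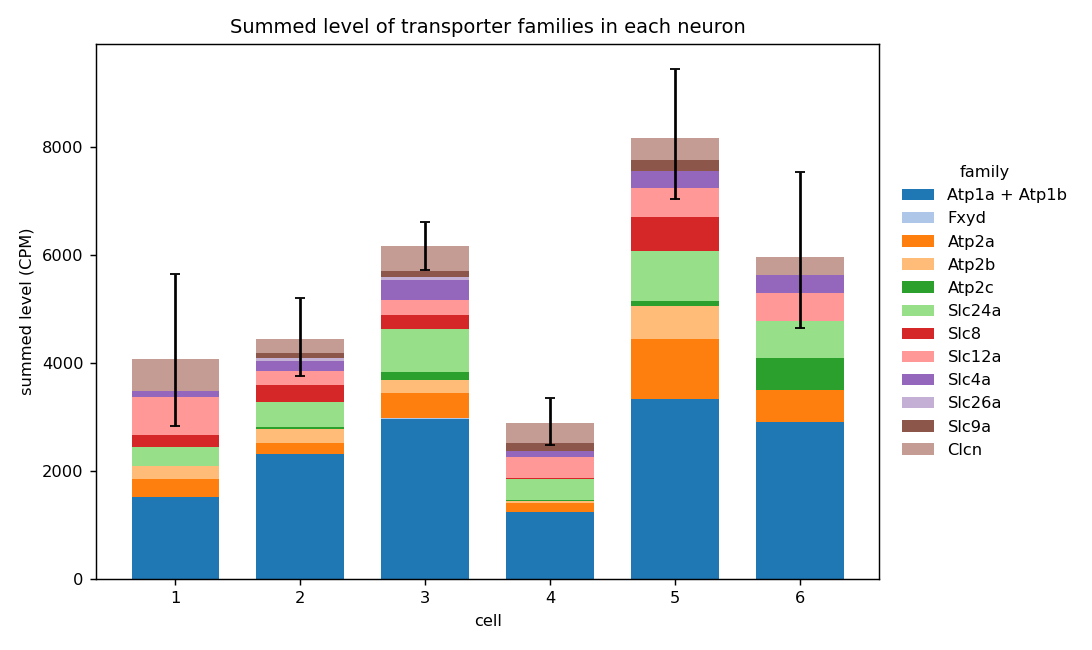
Stacked bars give the summed CPM of each family in each cell, with the sodium pump subunits as 1 block, and the black line is the 95% Poisson interval of the whole bar. Cell 5 reaches 8169 CPM and cell 4 2889.9 CPM, and the sodium pump block (dark blue, at the bottom) is the largest in every cell.

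The beta subunit of the sodium pump, which brings the pump to the membrane, came almost wholly from 1 gene, Atp1b1. Atp1b1 (chromosome 1, 164437109 to 164458355, minus strand of GRCm38) had 8, 66, 228, 54, 61 and 26 counts in cells 1 to 6. It was the most abundant member, with a median of 1887 CPM, higher than 99.9% of protein-coding genes. Cells 2, 3, 5 and 6 lay between 1861 and 2708 CPM, whereas cells 1 and 4 were lower, at 929 CPM (8 counts only) and 887 CPM. Cell 5 exceeded cell 4 by 3.05 times (2.08 to 4.49), while the ratio of cell 2 to cell 1, 2.06, had an interval of 0.987 to 4.97.

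Its relatives were near or at 0. Atp1b3 had 1 count, and Atp1b2 and Atp1b4 had none, as had Atp1a4, known from sperm. Atp1b1 therefore held 99.8% of the 444 beta counts (95% Clopper-Pearson interval 98.8% to 99.99%). A gene without a count in any cell could have a pooled level of up to 11.5 CPM, the level of 3 counts over all 260789. Of the 7 Fxyd genes, small membrane proteins that tune the pump, Fxyd1 and Fxyd4 had 1 count each, both in cell 3, while Fxyd2, Fxyd3, Fxyd5, Fxyd6 and Fxyd7 had none.

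In the last 1000 bases of Atp1b1, where CEL-Seq2 reads mostly fall, 31.2% of windows of 50 bases occurred in a transcript of another gene, mainly Nme7. That gene lies on the opposite strand and had 10 counts over all cells, against 443 of Atp1b1. Per kilobase of exons, the median level of Atp1b1 was 613 CPM.

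Calcium pumps of the P type share a phosphorylation site, and each of their 3 families was led by 1 gene. The site is the aspartate that takes the phosphate of ATP during each transport cycle. It is shown for Atp2b1, of the plasma membrane, and Atp2c1, of the Golgi, as 1 feature that these pumps share. Given are 33 coding bases on GRCm38, with the 15 bases of the 5 codons from the aspartate codon onward in capitals. The stretches lie at chr10:98999808-98999840 (Atp2b1, plus strand, exon 10) and chr9:105445269-105445301 (Atp2c1, minus strand, exon 13).
Atp2b1: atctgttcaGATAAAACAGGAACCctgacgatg
Atp2c1: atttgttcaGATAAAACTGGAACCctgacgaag
Of the 33 bases, 30 were identical, and 14 of the 15 in capitals.

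Atp2a2 encodes SERCA2, the pump that returns calcium to the endoplasmic reticulum. It had 3, 4, 58, 10, 25 and 7 counts in cells 1 to 6, a median of 411 CPM. Cell 5 was highest at 1109.9 CPM (718 to 1638), above the interval of every other cell except cells 1 and 6, and cells 2 and 4 were lowest, at 116 CPM (31.6 to 297) and 164 CPM. The ratio of cell 5 to cell 2 was 9.57 (3.30 to 37.8). Atp2a3 had 3 counts, all in cell 2, and Atp2a1, the pump of fast muscle, had none, leaving Atp2a2 with 97.3% of 110 family counts.

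Atp2b1 encodes PMCA1, which expels calcium across the plasma membrane. Its counts were 2, 7, 29, 3, 9 and 0, with a median of 218 CPM. Cells 1, 2 and 3 were alike at 203 to 237 CPM, cell 5 was at 399.6 CPM (183 to 758) and cell 4 at 49.3 CPM. In cell 6, 2.35 counts were due at the joint rate of the remaining libraries, so its 0 was not detectable as a lower level at this depth. Atp2b4 had 2 counts in cell 2 and 5 in cell 5, and Atp2b2 and Atp2b3 had none. Atp2c1, the Golgi pump for calcium and manganese, had 0, 1, 13, 1, 2 and 7 counts. Its 7 counts in cell 6 made 597 CPM (240.0 to 1230.1), while the other cells lay between 0 and 106 CPM. Aste1 overlaps Atp2c1 by 1837 exonic bases on the opposite strand and had 2 counts in cell 6, so this level is uncertain. Cell 6 also had the highest Coch level, 23 of its 59 counts. The other listed ionocyte and microvillous cell markers (Foxi1, Ascl3, Cftr and Trpm5) had no count in any cell. The part of RNA from other cells was not tested. Atp2c2 had 5 counts, all in cell 3.

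Among the calcium exchangers, Slc24a2 and Slc8a1 carried nearly all counts, and Slc24a4 very few. Slc24a2 encodes NCKX2, which exports calcium and potassium in exchange for sodium and is known from cone photoreceptors and brain neurons. It lies on the minus strand of chromosome 4 (86983124 to 87230477) and had 2, 14, 96, 20, 21 and 8 counts in cells 1 to 6, a median of 544 CPM that exceeded 99.5% of protein-coding genes. Levels were 232, 406, 783, 328, 932 and 682 CPM. Cells 3 and 5 were above cell 4, with ratios of 2.39 (1.46 to 4.08) and 2.84 (1.46 to 5.52), and cells 1, 2 and 6 could not be told apart from cell 4 by counting error. Per kilobase of exons, Slc24a2 (44.5 CPM) fell below Atp2a2 (67.6 CPM), so the order of these 2 genes depends on that scale.

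Slc24a4 encodes NCKX4. It had 1 count in cell 1 and 2 in cell 3, while Slc24a1 had 3 counts, Slc24a5 4 and Slc24a3 none. Over all cells Slc24a2 had 53.7 counts per count of Slc24a4 (95% interval 18.0 to 263). In cells 2, 4, 5 and 6 the 95% Poisson interval of its 0 counts reaches 107, 60.6, 164 and 315 CPM. Its 2 counts in cell 3 stood for 16.3 CPM (1.98 to 58.9), beside 783 CPM of Slc24a2 (635 to 957) in the same cell. Slc24a5 shares 921 exonic bases with Myef2, which had 22 counts on the opposite strand, so its own 4 counts are uncertain.

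The coding sequences of Slc24a2 and Slc24a4 were compared to show how far the 2 genes differ. Their most alike stretch of 60 bases lies at chr4:87227241-87227300 in exon 1 of Slc24a2 (minus strand) and chr12:102222057-102222116 in exon 5 of Slc24a4 (plus strand), on GRCm38. Capitals mark the 13 bases that differ.
Slc24a2: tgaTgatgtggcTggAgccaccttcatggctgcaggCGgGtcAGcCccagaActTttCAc
Slc24a4: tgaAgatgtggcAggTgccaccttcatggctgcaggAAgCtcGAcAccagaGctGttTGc
The longest identical run was 20 bases, and none of 2258 windows of 50 bases near the 3' ends of Slc24a2 transcripts occurred in another gene. The coding stretch does not bear on reads near 3' ends, and the 3' ends of Slc24a4 were not examined. Whether reads of Slc24a4 were missed was therefore not tested.

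Slc8a1 encodes NCX1, an exchanger of sodium for calcium that carries no potassium. Its counts were 2, 11, 30, 1, 14 and 0 in cells 1 to 6, and no other Slc8 gene (Slc8a2, Slc8a3 or the mitochondrial Slc8b1) had a count. Cells 1, 2 and 3 lay at 232, 319 and 245 CPM, cell 5 at 622 CPM (339.8 to 1043) and cell 4 at 16.4 CPM (0.416 to 91.5). In cell 4, 17.4 counts were due at that joint rate, or 21.3 without cell 3, and 1 was found. The ratio of cell 5 to cell 4 was 37.9, with a wide interval of 5.76 to 1601 because it rests on that 1 count. In cell 6, 2.73 counts were due and a level up to 256 CPM would give 3, so that 0 says little. Of the joint counts of the 2 exchangers, Slc24a2 took 56.0% (34.9% to 75.6%) in cell 2 and 60% (42.1% to 76.1%) in cell 5. Its share was 76.2% (67.8% to 83.3%) in cell 3 and 95.2% (76.2% to 99.9%) in cell 4. The intervals of cells 2 and 5 are wide and overlap that of cell 3. In cell 1 both genes had 2 counts, and in cell 6 Slc24a2 had 8 and Slc8a1 0.

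**Figure D4:**
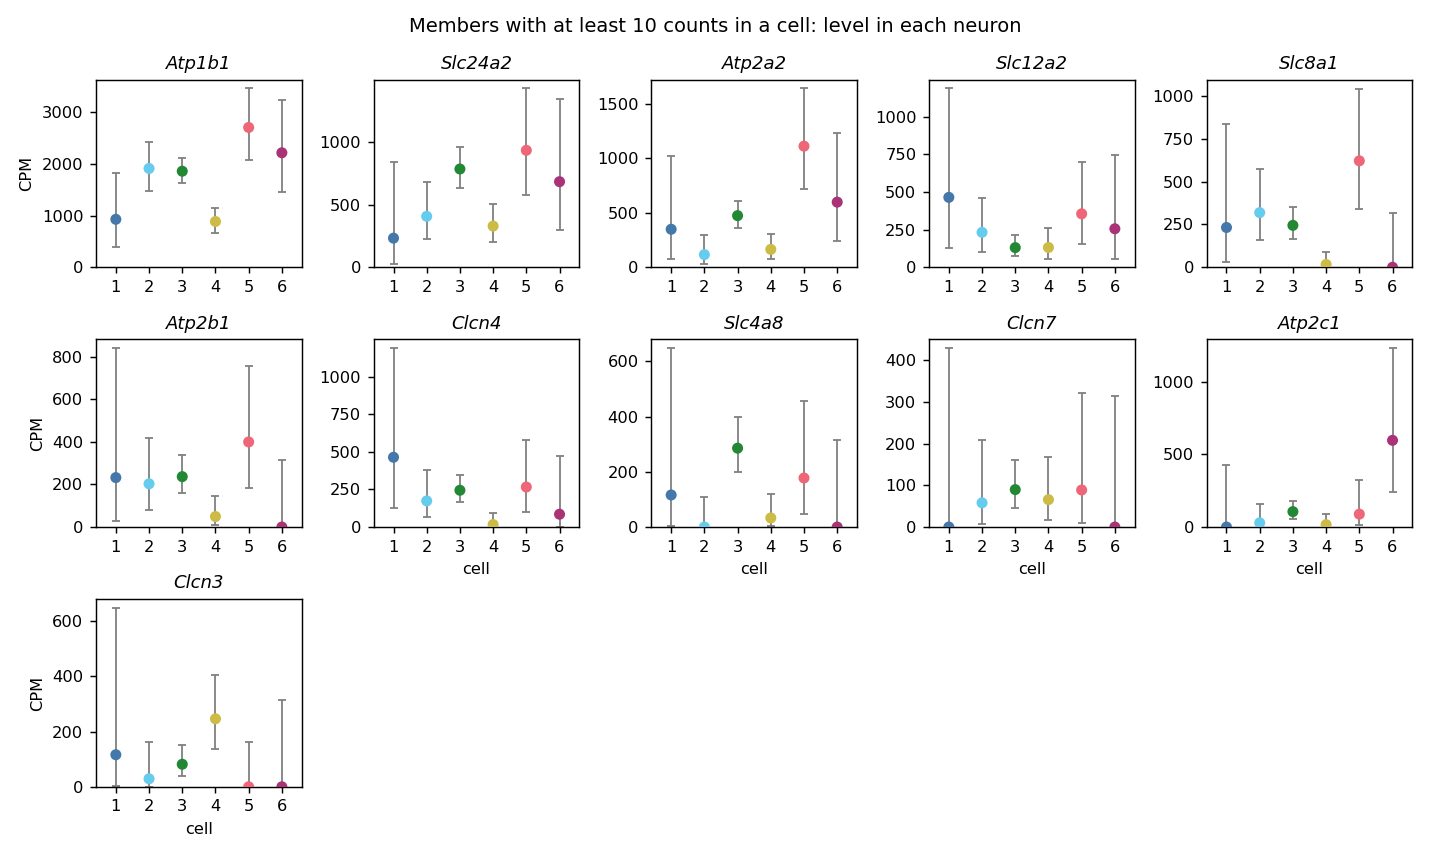
Each panel shows the level in CPM of 1 reported member with at least 10 counts in a cell, ordered by median, for cells 1 to 6. Points are single cells and lines are 95% Poisson intervals, which cover counting error only. Cell 4 (yellow) is at 16.4 CPM for Slc8a1 and Clcn4 but highest for Clcn3, at 246 CPM.

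The chloride cotransporters were led by the loader Slc12a2. Slc12a2 encodes NKCC1, which brings sodium, potassium and chloride into the cell, and it lies on the plus strand of chromosome 18 (57878678 to 57946821). It had 4, 8, 16, 8, 8 and 3 counts in cells 1 to 6, or 464, 232, 131, 131, 355 and 256 CPM. Its highest and lowest cells, 1 and 3, gave a ratio of 3.56 with an interval of 0.865 to 11.03, which counting error can span. The ratio of cell 5 to cell 3 was 2.72 (1.008 to 6.74). Among the potassium-chloride cotransporters, which extrude chloride, Slc12a7 (KCC4) had 4 in cell 3, 8 in cell 4 and 4 in cell 5, and Slc12a5 (KCC2, the extruder of mature central neurons) and Slc12a4 (KCC1) had none. In cell 4 Slc12a2 and Slc12a7 had 8 counts each. Over all cells Slc12a2 held 51.6% of the 91 family counts (40.9% to 62.3%). Slc12a9, an orphan of the family, had 1 count in cell 1 and 6 in cell 4, Slc12a1 had 1 count, and Slc12a3 and Slc12a8 had none.

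Bicarbonate carriers were low, and most counts of the leading gene were in cell 3. Slc4a8 encodes a sodium-driven chloride-bicarbonate exchanger that raises internal pH. It had 35 counts in cell 3 (286 CPM, 199 to 397) and 1, 0, 2, 4 and 0 in cells 1, 2, 4, 5 and 6. The level in cell 3 was 4.37 times the mean of the other cells, where it ranged from 0 to 178 CPM. It exceeded cell 4 by 8.70 times (2.23 to 74.6), but could not be told apart from cell 5 (ratio 1.61, 0.575 to 6.23). Slc4a4, the electrogenic sodium-bicarbonate cotransporter NBCe1, had 0, 4, 6, 3, 2 and 4 counts. Its 4 counts in cell 6 made 341 CPM (93.0 to 873), while the other cells lay between 0 and 116 CPM. Slc4a2 had 5 counts in all and shares 1141 exonic bases with Fastk on the opposite strand, Slc4a7 and Slc4a11 had 1 each, and Slc4a3, Slc4a5, Slc4a9 and Slc4a10 had none. Slc4a1, the anion exchanger of red blood cells, had 2 counts in cell 3 and 0 in the other cells.

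The Slc26a and Slc9a families were near the limit of detection. Of 11 Slc26a anion transporters, 3 were found: Slc26a2, a sulfate transporter, with 2 counts in cell 2 and 5 in cell 3, Slc26a11 with 2 counts and Slc26a8 with 1. Slc26a1, Slc26a3, Slc26a4, Slc26a5, Slc26a6, Slc26a7, Slc26a9 and Slc26a10 had none. Of the 29 counts of Slc9a proton exchangers, Slc9a8 and Slc9a9, which work in organelles, had 8 each. Slc9a8 had 5 of them in cell 3, and Slc9a9 had 4 in cell 3 and 3 in cell 5. Slc9a2, Slc9a3, Slc9a4, Slc9a5 and Slc9a7 had none.

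Clcn genes encode chloride channels of the plasma membrane (such as Clcn1 and Clcn2) and chloride-proton exchangers of endosomes and lysosomes (Clcn3 to Clcn7). All but 1 of the 107 Clcn counts came from the exchangers. Clcn4 had 4, 6, 30, 1, 6 and 1 counts in cells 1 to 6, and Clcn3 had 1, 1, 10, 15, 0 and 0. Cell 4 reversed the order of these 2 genes. There Clcn4 was at 16.4 CPM (0.416 to 91.5), with 14.3 counts due by the joint rate of the rest, and Clcn3 was at 246 CPM (138 to 406), with 3.66 counts due. Clcn4 made up 6.25% of the joint counts in cell 4 (0.158% to 30.2%), against 75.0% in cell 3 (58.8% to 87.3%). Clcn7, of lysosomes, had 0, 2, 11, 4, 2 and 0 counts, Clcn6 had 8 in all, Clcn5 4, Clcn2 1 and Clcn1 none.

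**Figure D5:**
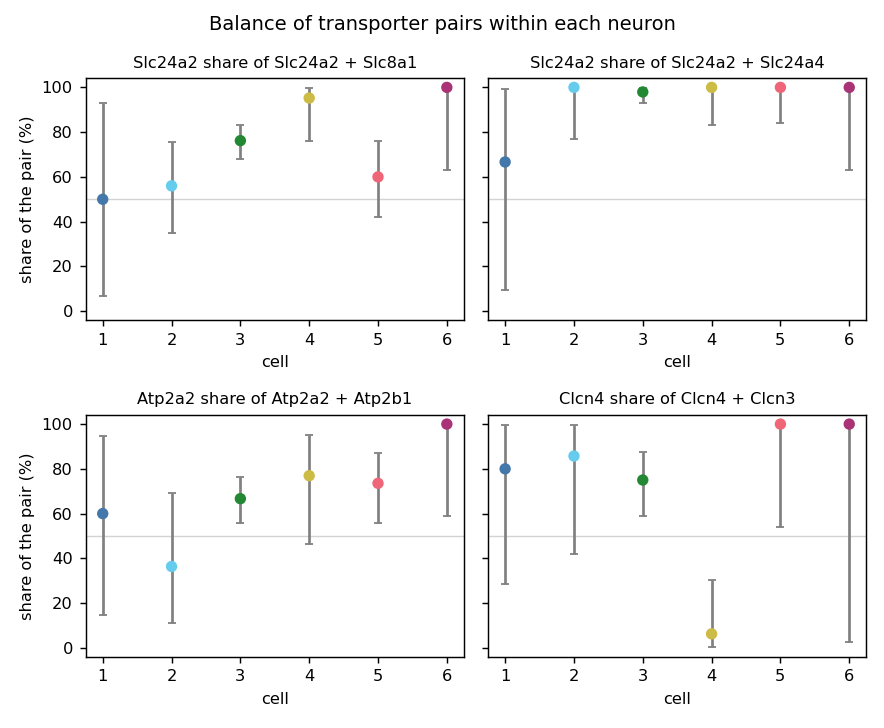
Each panel gives, for cells 1 to 6, the share in percent that the first gene takes of the counts of 2 related genes, with exact 95% Clopper-Pearson intervals, and the grey line marks 50%. Clcn4 takes 6.25% of the Clcn4 and Clcn3 counts in cell 4 and 75.0% in cell 3, and Slc24a2 takes 95.2% of the Slc24a2 and Slc8a1 counts in cell 4 and 60% in cell 5.

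Members of several families stood lower in cell 4 than the mean of the other neurons. For each cell, genes with at least 5 counts due at the rate over all libraries were compared with the mean CPM of the other 5 cells, without a test. In cell 4, 9 of 11 such members were at least 2-fold lower, against 21.6% of 2597 genes, among them Atp1b1, Atp2a2, Atp2b1, Atp2c1, Clcn4, Slc12a2, Slc4a8 and Slc8a1. Some of these were as low or lower in another cell, such as Atp2a2 at 116 CPM in cell 2, against 164 CPM in cell 4. Slc12a2 was at 131 CPM in cells 3 and 4. Counting error did not separate its level in cell 4 from that in any other cell. For Atp2c1, the mean of the other cells (164 CPM) rests largely on the uncertain 597 CPM of cell 6. Slc4a8 was compared in cell 4 mainly through cell 3, which held 35 of its 42 counts. Clcn3 was the 1 member at least 2-fold higher, against 23.7% of genes, but it was compared only through its own counts in cell 4. With 5 counts due by the other cells alone, 0 of 11 members were higher, against 16% of genes, and 10 of 11 lower, against 29.5%. For Slc4a8 those other cells still included cell 3. The median ratio of cell 4 to the other cells was 0.310 over the 11 members and 1.07 over all genes compared. When each other cell was left out of the mean in turn, 8 to 10 members were at least 2-fold lower. Globin RNA (12610.4 CPM, with Alas2 at 0) and immature neuron markers (2791 CPM) were highest in the same cell, and only cell 2 exceeded its sustentacular markers (887 CPM). Their part in the lower levels was not tested.

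Few members could be compared in cell 5. There 2 of 5 members, Atp2a2 and Slc8a1, were at least 2-fold higher than the mean of the other cells, against 11.4% of 607 genes. As much lower were 0 of 5, against 21.4%. Slc8a1 was compared only through its own counts in cell 5, and with 5 counts due by the other cells alone 1 of 4 members, Atp2a2, was higher, against 7.76% of genes. The count of higher members in cell 5 was also 1 without mitochondrial sequence in the totals and 0 with at least 10 counts due. The median ratio was 1.92 over the 5 members and 0.941 over all genes compared. In cell 3, 3 of 15 members were at least 2-fold higher, Clcn7 and Slc4a8 among them, against 28.4% of genes, and Slc12a2 and Slc4a4 as much lower (2 of 15, against 18.6%). With counts due by the other cells alone, 3 of 17 were higher, against 14.4% of genes, and 5 of 17 lower, against 31.4%, near the background. Clcn7 was at 89.8 CPM in cell 3, 88.8 CPM in cell 5 and 65.7 CPM in cell 4. Counting error separated its level in cell 3 from no other cell. Its counts of 0 in cells 1 and 6, where fewer than 1 count was due, lowered the mean. Slc4a4 was at 49.0 CPM in cell 3 and 49.3 CPM in cell 4. Its mean over the cells other than cell 3 (119 CPM) rests largely on 4 counts in cell 6 (341 CPM). In cell 2, Atp2a2 and Slc4a8 were lower (2 of 9, against 28.8%), and 0 of 9 were higher, against 7.45%. Slc4a8 was compared in cell 2 mainly through cell 3, which held 35 of its 42 counts. Only 3 members could be compared in each of cells 1 and 6. Atp1b1 and Slc24a2 were lower in cell 1 (2 of 3, against 22.4%, and 0 of 3 higher, against 10.9%). That count of 2 was 1 with pooled means or at least 10 counts due, and 0 at 3-fold or without mitochondrial sequence in the totals. None passed in cell 6, where 32% of genes were lower and 16.2% higher.

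Genes that work beside these carriers were counted in the same libraries. The 18 listed subunits of the vesicular proton pump were all found and summed to 2554, 1856, 3060.1, 2151, 2930.1 and 3070.4 CPM in cells 1 to 6, led by Atp6v1a (348 CPM), Atp6v0c (295 CPM) and Atp6ap2 (227 CPM) as medians. Bsg and Nptn, membrane partners of the plasma membrane calcium pumps, had medians of 306 and 124 CPM. Bsg had 4, 9, 37, 32, 7 and 3 counts. Its level was highest in cell 4, at 525 CPM, but close to that of cell 1, 464 CPM from 4 counts. Atp2b1 in cell 4 was at 49.3 CPM. Of 9 listed pump partners in the table, 3 were found, and the cardiac regulators Pln and Sln had no count. Of the 8 genes of the kinase cascade that controls chloride cotransporters, 6 were found with 72 counts in all, led by Wnk1 (102 CPM), Cab39 (98.9 CPM) and Wnk2 (67.3 CPM).

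The channels of the transduction current varied more. The listed cation and chloride channels, 4 of 8 found, summed to 1742, 754, 2064.5, 443 and 932 CPM in cells 1 to 5 and had no count in cell 6. Cnga2 and Ano2, the main cation and chloride channels of the cilia, had medians of 440.4 and 213 CPM, and Cnga4 of 124 CPM. In cell 6 the Poisson interval of the 0 counts of these channels reached 315 CPM. There Slc24a2 was at 682 CPM (295 to 1344) and Slc12a2 at 256 CPM (52.8 to 748). The intervals of Slc24a2 and Slc12a2 overlap that of the channels. Carbonic anhydrases and exchanger adaptors, which supply bicarbonate and anchor exchangers, were sparse: 8 of 18 were found with 41 counts, and Car2, Car3 and Car12 had medians of 22.2, 12.2 and 8.21 CPM. Of 10 other P-type pumps, 3 were found, namely Atp13a2 (46 counts), Atp13a1 (16) and Atp13a3 (3), and the gastric pump genes Atp4a and Atp4b had none.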

How the data were processed

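Per the labels, single neurons were made into CEL-Seq2 libraries, in which priming at the poly(A) tail places reads near 3' ends. Per the submitters' processing notes, CASAVA, Bowtie2 2.3.4, HTSeq and build mm10 were used, with no roles given. Annotation, strand setting and collapsing by molecular identifier were each not given in the sources used here, so a count may be a read or a molecule. The authors deposited raw counts per gene symbol for 6 cells, with totals of 8613 to 122546.

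CPM use the total over all genes in a cell and were not divided by length, since reads fall near 3' ends. Levels have exact 95% Poisson intervals, shares Clopper-Pearson intervals and ratios exact conditional binomial intervals, all for counting error only. All of them treat counts as independent. If a count is a read, repeated reads of 1 molecule would make them too narrow. The limit of detection was 3 counts. Gene places, exons and sequences are from GENCODE M21 of GRCm38, the assembly behind mm10. Nuclear copies of mitochondrial genes were pseudogenes with at least 50% of their 31-base words in mitochondrial transcripts.

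Some members, with the sequences tied to them, are counted in the totals but not reported here. All others are named, and values in each cell are given for those with at least 10 counts in a cell. The members, the lists and the measures were chosen with earlier results of these data known. The 2-fold comparison was run on simulated data (Python 3.11.15, scipy 1.17.1), and no error rate from that run is given here. How often the comparison errs for genes with few counts due is therefore not known. Other settings tried were a detection limit of 3 or 10 counts, thinning (20 draws), other CPM totals, exon length, pooled means, 3-fold, 10 counts due, and each cell left out. Leaving cells out of the mean set against cell 4, and taking counts due from the other cells alone, were chosen after seeing the data.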

Additional observations from a re-analysis of the deposited data

Results flagged for a closer look

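Of 27 sets of 6 cells examined (all members, 13 families and 13 genes), 3 had a cell far from the others by Dixon's ratio, the gap to the nearest cell divided by the whole range, set against its 95% limit for 6 values. Chance would flag about 1 in 20 sets if the values were normally spread with equal error. Here the counting error differs between cells, and the sets overlap because genes lie within their families. The rate of flags by chance is therefore not known. Cell 6 stood apart for Atp2c1 (ratio 0.822, 7 counts) and, through it, for the Atp2c family (0.754). The Fxyd family had a ratio of 1, as any set with counts in 1 cell only must have. Its 2 counts in cell 3, the deepest library, made 16.3 CPM, which lies within the interval of every other cell, so nothing shows that cell 3 stands apart.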

How the results depend on the processing

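Detection depended on depth. At 3 or 10 counts, 27 or 13 members were found in at least 1 cell, against 41 at 1 count, and 0 reached 10 counts in all cells. With every cell thinned, 3.75 members on average were found in all cells, against 6. The summed level of all members had a median of 5204 CPM, 5996 CPM without mitochondrial sequence and 6977 CPM over protein-coding genes, where every level is raised by the smaller total. Leaving out each cell gave 35 to 41 members in at least 1 cell, 6 to 8 in all cells and a median of 4438 to 5970.2 CPM. Over all cells, 6 members were at least 2-fold higher and 15 lower than the mean of the other cells. With at least 10 counts due 2 were higher, since fewer members could be compared, and 8 were at least 3-fold lower. With counts due by the other cells alone, 4 were higher and 19 lower. In cell 4, 6 members were at least 3-fold lower and 7 were 2-fold lower with at least 10 counts due, against 9. Of the 10 members with the highest median CPM, 8 stayed among the first 10 per kilobase of exons. No paired analysis was possible because the cells form 1 group.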

Other observations

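Genes of calcium stores and mitochondrial calcium, which shape calcium inside the cell after it has entered, were found at low levels. Of 17 listed, 12 had a count, summing to 232, 348, 832, 772, 488 and 512 CPM in cells 1 to 6. Orai2, a subunit of the store-operated calcium channel, had 38 counts, with 23 in cell 3 and 12 in cell 4, and Orai1 and Orai3 had none. Letm1, a protein of the inner mitochondrial membrane, had 29 counts, 26 of them in cell 3. Among the release channels of the endoplasmic reticulum, Itpr1 had 9 counts, Itpr2 and Ryr3 had 3 each, and Itpr3, Ryr1 and Ryr2 had none.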
